A study of Rattus norvegicus with 6 samples.

Results

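Mitochondrial DNA encodes 6 proteins of the energy-producing complexes other than complex I, and their transcripts are described here: the complex III subunit Mt-cyb, the complex IV subunits Mt-co1, Mt-co2 and Mt-co3, and the complex V subunits Mt-atp6 and Mt-atp8. They were taken from the expression table by 6 Ensembl gene identifiers, and 6 of 6 were found among its 34052 features. RNA came from neonatal rat ventricular cardiomyocytes, the contractile cells of the main heart chambers, taken from newborn rats and cultured. One group had received erastin at 10 µM for 24 h (3 libraries), and the other was a control (3 libraries), whose title is Con and which the table's name calls vehicle. Erastin stops cells from importing cystine, which they need for glutathione, and serves as an inducer of ferroptosis, a death driven by iron and oxidized lipids. The strain and sex of the rats, an age beyond newborn and any genetic change are not given in the labels, nor is it stated that replicates were separate cultures. The p-values therefore set the group difference only against the variation among these libraries, and that variation may be technical.

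Mitochondrial DNA is transcribed from both strands as long RNAs that are cut, mostly at transfer RNAs, into the separate messengers, which then receive short poly(A) tails. All 6 genes described here are read in the same direction, in the order Mt-co1, Mt-co2, Mt-atp8, Mt-atp6, Mt-co3 and Mt-cyb, with other genes between some of them. Complex III passes electrons from ubiquinol to cytochrome c, complex IV passes them on to oxygen, and complex V uses the resulting proton gradient to make ATP. Heart muscle is rich in mitochondria, and these messengers are among the most abundant RNAs of cardiomyocytes.

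All 6 transcripts were lower in erastin libraries than in control libraries, by 2.05-fold to 5.42-fold in mean FPKM (fragments scaled to feature length and library total). In limma on log2(FPKM + 1), with a Benjamini-Hochberg adjusted p under 0.05 as the threshold, 6 of 6 fell, where 24.1% of the 13576 tested features were called lower and 42.3% higher. In 6 of 6 the 3 erastin values lay below the 3 control values, against 26.3% of tested features. A fall of at least 1 on the log2 scale was called for 6 of 6, against 4.75% of tested features. Mt-co1 passed that level narrowly, at -1.04, and was at -0.98 without erastin replicate 2, so that this count rests on that library for Mt-co1. The median log2 fold change was -1.98 over the 6 transcripts and 0.13 over all tested features. In bulk RNA, a smaller share of cardiomyocytes and less of these RNAs relative to a cell's other RNA give the same reading. They cannot be told apart here.

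FPKM are scaled to the library total, so the split of calls depends on scaling. As deposited, 63.7% of the changed features rose, and 49.8% did so once the median log2 ratio of every library was set to 0. This centring gave a median log2 fold change of -2.10 for the 6 transcripts, and 6 of 6 remained lower. Library totals recovered from the FPKM steps ranged from 11126968 to 14914827 reads. The word read is used here for a counted unit, which in these paired-end libraries may be a pair (a fragment). Markers of cardiomyocytes and of other heart cells were not examined, since the sources used here do not pair the other identifiers with symbols.

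**Figure D1:**
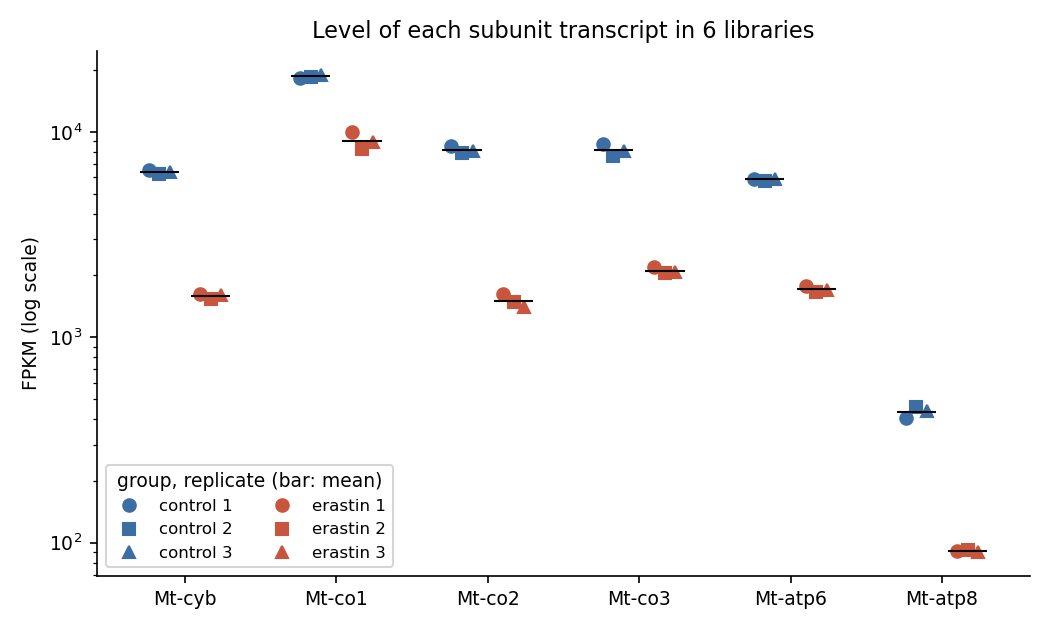
FPKM (log axis) of the 6 transcripts in 3 control libraries (blue) and 3 erastin libraries (red), with a marker shape for each replicate number and a bar for the group mean. In each transcript the erastin points lie below the control points, from 18979.9 at most for Mt-co1 in control to 90.3 at least for Mt-atp8 in erastin libraries.

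In complex III, Mt-cyb (ENSRNOG00000031766) encodes cytochrome b, which carries the hemes that take electrons through the membrane. Mt-cyb was at 6529, 6212 and 6404 FPKM in control replicates 1 to 3 and at 1627, 1532 and 1598 FPKM in erastin replicates 1 to 3. The groups were far apart, and erastin replicate 2 was the lowest library. The means were 6382 ± 159.7 and 1586 ± 48.9 FPKM (SD, n = 3), 4.03-fold lower. The log2 fold change was -2.01 with a standard error of 0.035 (limma adjusted p = 1.06e-08). These levels rested on 84232 to 105906 reads per control library and 20327 to 21038 per erastin library.

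In complex IV, Mt-co1 (ENSRNOG00000034234) encodes the subunit that holds the oxygen-reducing heme and copper centre. Mt-co1 was at 18325, 18469.6 and 18979.9 FPKM in control replicates 1 to 3 and at 9950.2, 8266 and 8962 FPKM in erastin replicates 1 to 3. It was the most abundant feature in each of the 6 libraries, in control and erastin alike. The means were 18591 ± 344 and 9059 ± 846 FPKM (SD, n = 3), 2.05-fold lower. The log2 fold change was -1.04 with a standard error of 0.063 (limma adjusted p = 5.14e-06). This was the smallest fall of the 6. Quantile normalization gave a log2 fold change of 0 and an adjusted p of 1 for Mt-co1, since that method sets the top feature of every library to the same value.

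Mt-co2 (ENSRNOG00000030371) encodes the subunit whose copper centre receives electrons from cytochrome c. It was at 8547, 7909 and 8078 FPKM in control replicates 1 to 3 and at 1633, 1484 and 1411 FPKM in erastin replicates 1 to 3. The lowest control value was well above the highest erastin value. The means were 8178 ± 331 and 1509 ± 113 FPKM (SD, n = 3), 5.42-fold lower. The log2 fold change was -2.44 with a standard error of 0.057 (limma adjusted p = 3.61e-08). Mt-co2 thus had the largest fall of the 6, and was at position 35 of the 13576 tested features when ordered from the most negative log2 fold change.

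Mt-co3 (ENSRNOG00000030700) encodes the third membrane subunit of the catalytic core, which carries no metal. It was at 8705, 7642 and 8048 FPKM in control replicates 1 to 3 and at 2192, 2063 and 2083 FPKM in erastin replicates 1 to 3. Control replicate 1 was the highest library, and the groups did not overlap. The means were 8131 ± 536 and 2112 ± 69.3 FPKM (SD, n = 3), 3.85-fold lower. The log2 fold change was -1.94 with a standard error of 0.050 (limma adjusted p = 5.03e-08).

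In complex V, Mt-atp6 (ENSRNOG00000031979) encodes subunit a, which forms the path for protons beside the rotating ring. Mt-atp6 was at 5918, 5789.6 and 5894 FPKM in control replicates 1 to 3 and at 1783, 1659 and 1704 FPKM in erastin replicates 1 to 3. The control libraries lay close together, with a coefficient of variation (SD over mean) of 1.16%. The means were 5867 ± 68.1 and 1715 ± 62.8 FPKM (SD, n = 3), 3.42-fold lower. The log2 fold change was -1.77 with a standard error of 0.034 (limma adjusted p = 1.44e-08).

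Mt-atp8 (ENSRNOG00000033299) encodes a small membrane subunit of the stator, and in mammals its reading frame overlaps the start of Mt-atp6 on a shared messenger. It was at 406, 455 and 437 FPKM in control replicates 1 to 3 and at 91.4, 92.2 and 90.3 FPKM in erastin replicates 1 to 3. The erastin libraries were nearly equal, and all lay below the control libraries. The means were 433 ± 24.7 and 91.3 ± 0.944 FPKM (SD, n = 3), 4.74-fold lower. The log2 fold change was -2.23 with a standard error of 0.044 (limma adjusted p = 1.48e-08). Its counts were the lowest of the 6, with 954 to 1385 reads per control library and 205 to 226 per erastin library. The counted length was 204 bases, against 681 bases for Mt-atp6, and how the authors assigned reads that touch both genes is not given in the sources used here. Levels of Mt-atp8 and Mt-atp6 are uncertain to that extent. Because both reading frames lie on a shared messenger, Mt-atp8 and Mt-atp6 are separate counted genes here, not separate messengers. The word transcript is used here for each counted gene.

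**Figure D2:**
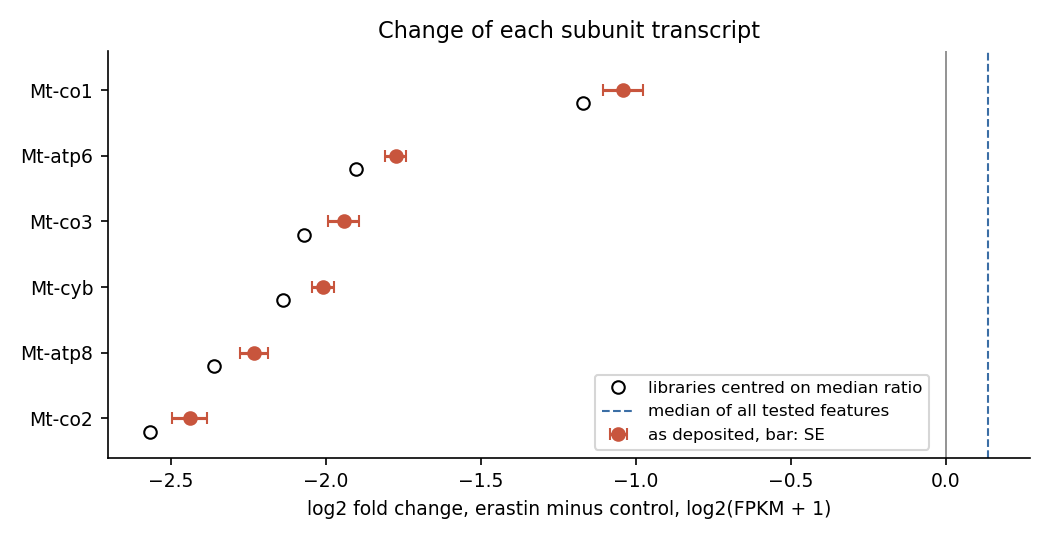
Log2 fold change of the 6 transcripts, erastin minus control, on the log2(FPKM + 1) scale, with the standard error from limma (filled points) and after centring (open points). The dashed line is the median of all tested features, 0.13, and the transcripts lie between -2.44 (Mt-co2) and -1.04 (Mt-co1).

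Counting noise was small beside the spread between libraries for most transcripts. The coefficient of variation within a group ranged from 1.03% to 9.34%, and the part that counting alone gives from 0.166% to 6.85%. The spread was above counting noise in 11 of 12 combinations of transcript and group. The exception was Mt-atp8 in erastin libraries, at 1.03% against 6.85%, so the closeness of these 3 values is finer than their depth can resolve. The limma standard error and adjusted p of Mt-atp8 draw on that spread and may be too small. The widest spread was that of Mt-co1 in erastin libraries, at 9.34%. Erastin replicate 1 was the highest erastin library for 5 of 6 transcripts, and control replicate 2 was the lowest control library for 4 of 6.

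The order of the levels, compared between genes per counted length, differed between the groups. The recovered values show no correction of that length for fragment size. The level of Mt-atp8, the shortest at 204 bases, is therefore the least comparable with the others. In control libraries it was Mt-co1, Mt-co2, Mt-co3, Mt-cyb, Mt-atp6 and Mt-atp8. Mt-co2 and Mt-co3 were not separated there, since their within-library ratio was 0.982 to 1.03. In erastin libraries the order was Mt-co1, Mt-co3, Mt-atp6, Mt-cyb, Mt-co2 and Mt-atp8. Mt-cyb and Mt-co2 were not separated, with a ratio of 0.997 to 1.13, and each other neighbour in the erastin order was higher than the next in 3 of 3 libraries. Mt-co2 was thus the second in control and the fifth in erastin libraries. By reads not divided by length, Mt-co2 was the fourth in control and the fifth in erastin libraries. Among all features, the rank of the group-mean FPKM went from 2 to 21 for Mt-co2 and from 3 to 10 for Mt-co3. That rank went from 5 to 20 for Mt-cyb, from 6 to 17 for Mt-atp6 and from 151 to 1079 for Mt-atp8. Of the 10 most abundant features, 5 were among these transcripts in control and 2 in erastin libraries.

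The 6 transcripts together held 8.77 ± 0.150% of the FPKM of a control library and 2.97 ± 0.203% of an erastin library (SD, n = 3). The control libraries were at 8.86%, 8.59% and 8.84%, and the erastin libraries at 3.19%, 2.80% and 2.93%. The groups did not overlap, and the difference of -5.79 percentage points reached p = 0.1 in an exact two-sided permutation test, below which 3 against 3 libraries cannot go. Counted in recovered reads, which are not divided by length, they held 5.21 ± 0.0864% and 1.97 ± 0.151% (SD, n = 3). With these 6 left out of the library totals, the median log2 fold change of all tested features was 0.09.

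**Figure D3:**
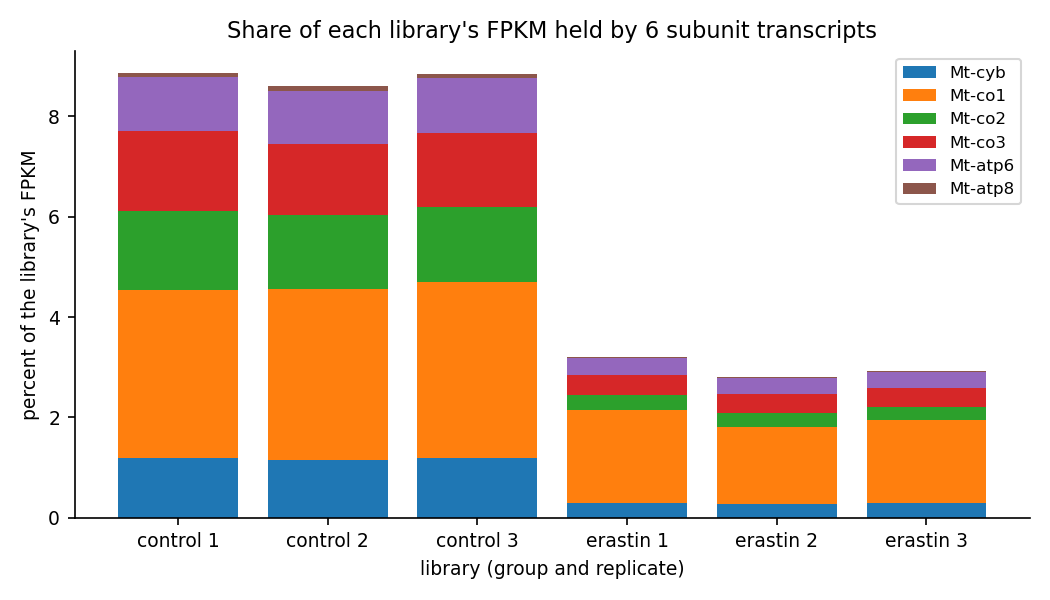
Percent of each library's summed FPKM held by the 6 transcripts, stacked by transcript, for control and erastin replicates 1 to 3. Control bars reach 8.59% to 8.86% and erastin bars 2.80% to 3.19%, and Mt-co1 makes up the largest segment in each bar.

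Mt-co1 made up a larger share of this pool in erastin libraries. Of the summed FPKM of the 6 transcripts, Mt-co1 held 39.1 ± 1.08% (SD, n = 3) with control and 56.3 ± 1.43% with erastin. Mt-co2 held 17.2 ± 0.408% and 9.39 ± 0.465%, and Mt-co3 held 17.1 ± 0.797% and 13.2 ± 0.490%. Mt-cyb held 13.4 ± 0.0618% and 9.88 ± 0.404%, Mt-atp6 held 12.3 ± 0.119% and 10.7 ± 0.339%, and Mt-atp8 held 0.911 ± 0.0702% and 0.570 ± 0.0407%. These shares sum to a whole, so a higher share of Mt-co1 lowers the others.

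Ratios within a library, in which the library total cancels, were compared between the groups for all 15 pairs of the 6 transcripts. In 13 of 15 pairs the control and erastin ratios did not overlap, where 69.0% of all 88797801 pairs of tested features above 0 in every library did not. The 15 pairs share 6 transcripts and are not independent, so little can be read from their count, and the sizes of the differences are given below. Each of the 13 pairs without overlap had an exact permutation p of 0.1, the smallest possible, and an adjusted p of 0.115 over the 15 pairs. No pair can therefore pass 0.05 in this design. The largest difference was that of Mt-co1 to Mt-co2, neighbours on the mitochondrial genome and parts of the same complex. The geometric mean of their ratio was 2.27 in control and 5.997 in erastin libraries, which on the log2 scale is 1.19 ± 0.0739 and 2.58 ± 0.0966 (SD, n = 3), 1.40 higher. The lowest erastin ratio of this pair, 2.48 on the log2 scale, was above the highest control ratio, 1.23.

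The other pairs with Mt-co1 differed in the same direction. The log2 ratio of Mt-cyb to Mt-co1 differed by -0.97, and the log2 ratio of Mt-co1 was higher by 0.90 against Mt-co3, 0.73 against Mt-atp6 and 1.20 against Mt-atp8. Within complex IV, the ratio of Mt-co2 to Mt-co3 had a geometric mean of 1.01 in control and 0.713 in erastin libraries. Within complex V, the ratio of Mt-atp6 to Mt-atp8 was 13.6 in control and 18.8 in erastin libraries, 0.47 higher on the log2 scale. Their log2 ratio ranged from 3.67 to 3.86 in control and from 4.17 to 4.28 in erastin libraries, with the limits on reads of overlapping genes given above. Since both lie on a shared messenger, this is a ratio between counted genes, not between separate messengers.

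In 2 of 15 pairs the ratios overlapped between the groups. The log2 ratio of Mt-cyb to Mt-co3 was -0.35 ± 0.0601 with control and -0.41 ± 0.0275 with erastin (SD, n = 3; exact permutation p = 0.2, adjusted p = 0.2). That of Mt-co2 to Mt-atp8 was 4.24 ± 0.141 and 4.04 ± 0.101 (SD, n = 3; exact permutation p = 0.2, adjusted p = 0.2). A difference in the change of these pairs was not detectable with 3 libraries a group, which does not show that they changed alike. In genome order, the log2 fold changes were -1.04 for Mt-co1, -2.44 for Mt-co2, -2.23 for Mt-atp8, -1.77 for Mt-atp6, -1.94 for Mt-co3 and -2.01 for Mt-cyb. The smallest and the largest fall were thus in adjacent genes, and the values did not run in one direction along the genome.

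**Figure D4:**
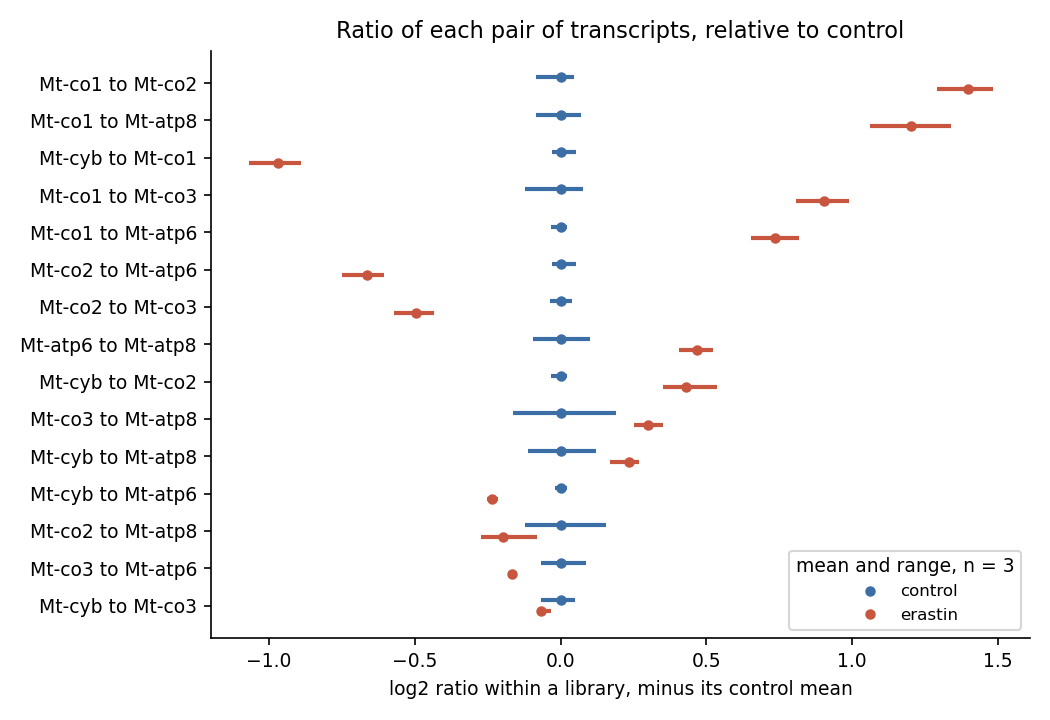
Within-library log2 ratio of each of the 15 pairs of transcripts, minus its mean in control libraries, as mean and range over 3 control (blue) and 3 erastin (red) libraries. The pair Mt-co1 to Mt-co2 is the farthest apart at 1.40, and the ranges of the pairs Mt-cyb to Mt-co3 and Mt-co2 to Mt-atp8 overlap.

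Outside these 6, 285 tested features had a mean over 6 libraries at or above that of Mt-atp8. Of the 285, 41.1% were called lower and 48.1% higher, and their median log2 fold change was 0.09. A log2 fold change at or below that of Mt-co1 was found in 28 of the 285, and one at or below that of Mt-atp6 in 7. The 285 are not paired with symbols here and may include other mitochondrially encoded genes. In the order of all tested features from the most negative log2 fold change, Mt-co2 at position 35 was followed by Mt-atp8 at 50, Mt-cyb at 87, Mt-co3 at 101, Mt-atp6 at 139 and Mt-co1 at 600.

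**Figure D5:**
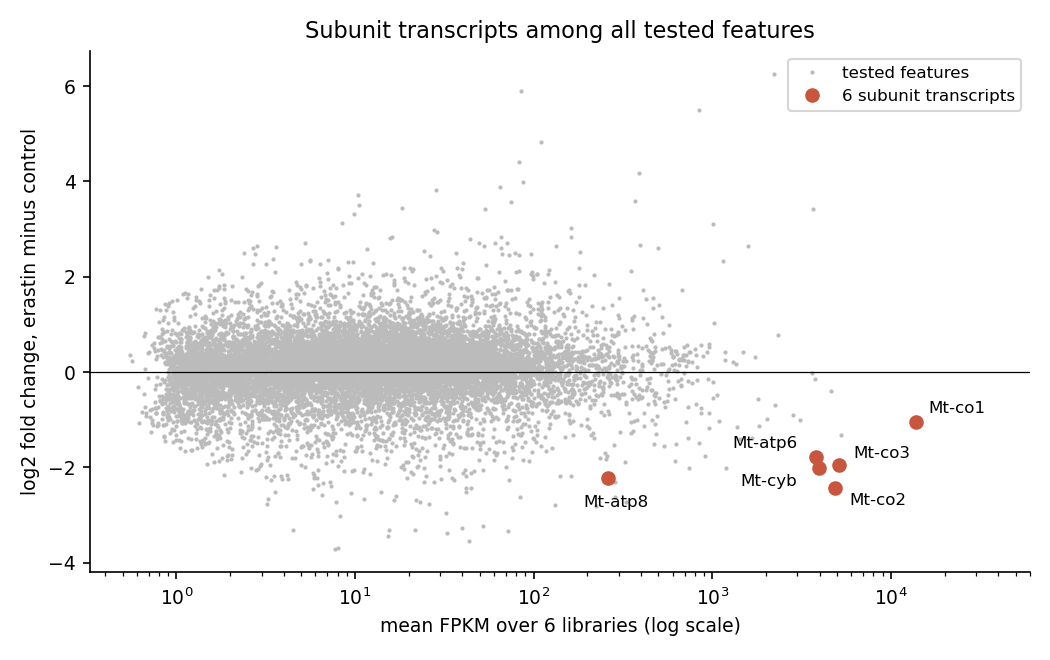
Log2 fold change, erastin minus control, against mean FPKM over 6 libraries (log axis) for 13576 tested features (grey), with the 6 transcripts in red. Mt-co1 lies farthest to the right at -1.04, 4 others lie between -2.44 and -1.77 at similar abundance, and Mt-atp8 lies at -2.23 at lower abundance.

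Over the 6 libraries, each transcript followed the mean of the other 5, with Pearson's r on the log2(FPKM + 1) scale of 0.992 for Mt-co1, 0.997 for Mt-atp8 and 0.998 or more for the rest. These libraries form 2 separate groups, so r mostly reflects the difference between them and is given as a description. Among 6782 other features at or above the median level of 12.51 FPKM, 573 had an r of at least 0.99 with the mean of the 6. The 2 most alike, both with r = 0.9998 over 6 libraries, were ENSRNOG00000010744 and ENSRNOG00000022999. ENSRNOG00000010744 was at 85.8 ± 0.565 FPKM with control and 32.9 ± 0.808 FPKM with erastin (SD, n = 3; log2 fold change -1.36, limma adjusted p = 4.22e-08). ENSRNOG00000022999 was at 68.9 ± 1.34 and 22.0 ± 0.746 FPKM (SD, n = 3; log2 fold change -1.60, limma adjusted p = 4.00e-08). Their gene symbols are not paired with the identifiers in the sources used here.

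The counted lengths, recovered from the FPKM steps, were 1143 bases for Mt-cyb, 1545 for Mt-co1, 684 for Mt-co2, 784 for Mt-co3, 681 for Mt-atp6 and 204 for Mt-atp8. A whole number of codons was found in 5 of 6, and the length of Mt-co3 was 1 base past one. In vertebrate mitochondria some reading frames end in an incomplete stop codon that the poly(A) tail completes. Copies of mitochondrial DNA in the nuclear genome can share reads with these genes, and how the authors treated such reads is not given in the sources used here.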

How the data were processed

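Poly(A)-selected RNA was made into strand-marked (dUTP) paired-end libraries and sequenced on an Illumina NovaSeq, per the labels' protocols. Messengers were thus measured through their tails. Tail length was not examined, so the FPKM of the 6 transcripts and their ratios are levels of captured RNA. The submitters' processing notes list HISAT2 2.0.5 and DESeq2, without a role. For the counter, the use of strand, the build and the annotation nothing is given in the sources used here. FPKM were deposited by the authors for each feature and library (6 libraries, grouped by title).

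A feature was tested if 3 or more libraries reached 1 FPKM. The test was limma (3.58.1, with R 4.3.3) on log2(FPKM + 1), its prior trended and robust, with Benjamini-Hochberg adjustment over all 13576; a fold on this scale understates changes of low features. The test was also run on simulated data in which few features changed, as many higher as lower. That setting does not cover these data, with 9011 changed features, and nothing is concluded from it. Reads and counted lengths were recovered in Python 3.11.15, and 36 of 36 values of the 6 transcripts were whole reads within a relative tolerance of 1e-06. The counted length was chosen as the smallest that made every library's reads whole, so this count is no separate check. Shares and ratios used exact two-sided permutation tests. Between libraries of a group the chi-square per feature had a mean of 2.96 to 5.42 and a median of 0.598 to 0.774, so a minority of features carried most of the mean, and no library was taken as a copy of another.

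The transcripts, lists and tests were chosen with earlier results of these data known. All 6 transcripts were named, with the 2 features most alike in pattern. Symbols came with the list of 6 identifiers and were not checked against an annotation: the reference table (GRCr8) matched 0 of them. Lists of mitochondrially encoded complex I subunits, nuclear-encoded subunits, mitochondrial regulators and cell type markers, planned by symbol, were not analysed here. Alternatives covered scaling, pseudocount, filter, prior, threshold, recovered reads, each library left out and a replicate block.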

Additional observations from a re-analysis of the deposited data

How the results depend on the processing

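Of 120 values (6 transcripts under 20 alternatives), 119 were lower with an adjusted p under 0.05, and the exception was Mt-co1 under quantile normalization, at 0 by construction. The alternatives that changed only the threshold, an adjusted p under 0.01 or a required log2 fold change, kept the main fit. Their values in this tally repeat the main result. Outside quantile normalization, the log2 fold changes ranged from -2.15 to -1.98 for Mt-cyb, -1.18 to -0.98 for Mt-co1, -2.58 to -2.39 for Mt-co2, -2.08 to -1.89 for Mt-co3, -1.91 to -1.75 for Mt-atp6 and -2.38 to -2.19 for Mt-atp8. Their largest adjusted p was 0.000215, for Mt-co1 without erastin replicate 3. A required log2 fold change of 1 or more in size left 1344 changed features, 699 higher and 645 lower, by construction, against 9011, 5744 and 3267. As a share of recovered reads, the 6 transcripts differed by -3.24 percentage points in place of -5.79. By reads not divided by length, 3 of 6 transcripts kept their position in the erastin order and 4 of 6 in the control order. Leaving out 1 library gave 13 to 14 pairs of transcripts without overlap. That count could not fall below 13, since leaving out a library can only narrow a range. Without control replicate 2, Mt-co3 was above Mt-co2 in control libraries.

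The fit with a replicate block called 6 of 6 transcripts lower, among 8768 changed features (5583 higher, 3185 lower). The labels do not pair libraries of the same number, and their deviations correlated at -0.03, 0.07 and 0.03, so the number was not used as a pairing. Not every library correlated best with its own number. Depth limits Mt-atp8 most, with 205 to 226 reads per erastin library.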
